A study of Mus musculus with 39 samples.

Results

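Epiblast stem cells (EpiSCs) are pluripotent lines grown from the epiblast, the layer of the postimplantation mouse embryo that gives rise to the body. RNA was sequenced in bulk from 4 EpiSC lines, which are all the samples labelled EpiSC among the 39 of the series. Of these, 2 lines (null 2 and null 6) were Stat3 null and 2 lines (WT 8 and WT 13) were WT. The null allele replaces exons 20 to 22 of Stat3 by a neomycin resistance gene. All 4 lines came from embryos of Stat3 het inter-crosses on the outbred CD1 background, taken at E6.5 or E7.5, and the labels do not say which stage gave which line. The lines were kept in N2B27 medium with FGF2, Activin A and the Wnt pathway inhibitor XAV-939 on fibronectin, without LIF. A line is 1 derivation, so p-values measure the spread between lines, and the design sets 2 lines against 2. With 2 against 2, an exact permutation test of a single gene cannot go below p = 0.333, so the tests given are those of a model fitted across all genes.

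STAT3 is a transcription factor that waits in the cytoplasm until cytokines such as LIF, acting through gp130 receptors, bring Janus kinases to phosphorylate it on a tyrosine near its C terminus. The phosphorylated dimer enters the nucleus and binds GAS elements, TTCNNNGAA. In naive mouse embryonic stem cells this route sustains self-renewal, while EpiSCs are maintained by FGF and Activin and need no LIF. The codon for that tyrosine, codon 705, is shown because it lies within the deleted exons. It is in capitals in the sequence of exon 22 of the 24-exon Stat3 transcript (GRCm38, chr11:100889886-100889928, minus strand, coding).

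Stat3 exon 22: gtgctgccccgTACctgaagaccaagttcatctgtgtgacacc

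Exons 20 to 22 hold 396 of the 4516 bases of this transcript, 8.77%, and the deposited values count the gene as a whole.

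The libraries held between 63445877 and 127583699 counts. Both null libraries were shallower (63445877 and 91672665) than both WT libraries (100108120 and 127583699), and 24883 to 27613 genes had at least 1 count. Levels are given as counts per 1000000 counts of the library (CPM), on library sizes scaled by the trimmed mean of M values, in the order null 2, null 6, WT 8 and WT 13. A floor of 3 counts corresponded to 0.0233 to 0.0470 CPM, for counting error only. No library repeated another: the chi-square of each pair of lines over genes was 34.7 to 77.5 per degree of freedom.

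The markers of EpiSCs were present in every line. Pou5f1, the central pluripotency factor, was at 486, 532, 505 and 435 CPM. Fgf5, a gene of the postimplantation epiblast, was at 87.1, 115, 121 and 83.0 CPM, and Otx2, which directs exit from the naive state, at 61.8, 73.4, 79.9 and 65.8 CPM. The genotypes overlapped for all 3. Markers of the naive state were low: Zfp42 had no count in any line, Klf4 was at 1.44 to 2.09 CPM and Esrrb at 0.607 to 2.13 CPM. Of the other cell types, Ttr, Fgb, Hbb-bh1, Hba-x, Tpbpa and Lum had no count in any line. The summed level of the 10 fibroblast markers was 17.0, 13, 16.2 and 25.2 CPM, of which Col1a1 was at 1.40 to 4.44 CPM and Col3a1 at 1.42 to 12.5 CPM. The 16 visceral endoderm markers summed to 9.81 to 18.6 CPM, the 13 trophoblast markers to 75.4 to 160 CPM and the 14 of blood and endothelium to 19.97 to 55.7 CPM.

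The lines were not of 1 sex. Xist, the RNA that coats the inactive X chromosome, was at 1615 CPM in null 2 and at 1.40, 1.59 and 2.51 CPM in null 6, WT 8 and WT 13. The Y-linked genes Ddx3y, Eif2s3y, Kdm5d and Uty lay at 0 to 0.172 CPM in null 2 and at 40.1 to 96.2 CPM in the other lines. Null 2 thus has a female pattern and the other 3 lines a male one. Sex differs within the null pair and cannot be told apart from the other differences of null 2. The count of genes called by edgeR is therefore also given without null 2, which leaves 1 null and 2 WT lines of male pattern.

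The lines differed from each other by about as much within a genotype as between genotypes. The median absolute log2 difference over 20736 genes was 0.18 between the null lines and 0.22 between the WT lines, against 0.20 to 0.24 for the 4 pairs of 1 null and 1 WT line. Genes apart by more than 2-fold made up 9.74% of genes between the null lines, 9.45% between the WT lines and 9.50% to 12.1% between genotypes. In a principal component analysis of the 500 most variable genes, the first component (53.2% of the variance) placed null 2 at -10.6, null 6 at -2.03, WT 8 at 5.18 and WT 13 at 7.45. Null 2 lay farthest out, and null 6 lay closer to WT 8 than to null 2 on this axis.

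Stat3 (GRCm38, chr11:100885098-100939540, minus strand) checks the labels. It was at 3.15, 3.50, 18.2 and 22.8 CPM, so the 2 null lines lay below both WT lines. The means were 3.33 ± 0.249 (SD, n = 2) in null and 20.5 ± 3.23 CPM (n = 2) in WT. The log2 fold change, null minus WT, was -2.62 ± 0.17 (SE), with an adjusted p of 0.00706 in the quasi-likelihood test of edgeR, adjusted after Benjamini and Hochberg over all genes. The counts left in null lines were 201 and 323, which the files do not assign to exons.

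The comparison asked which transcripts differ when EpiSCs lack STAT3. A gene was called where its log2 fold change passed 1 in size with an adjusted p under 0.05. Of 20736 genes tested, 22 were called (0.106%), 9 higher in null (0.0434%) and 13 lower (0.0627%). At an unadjusted p under 0.05 there were 1885 genes (9.09%), 748 higher and 1137 lower. DESeq2 on the same counts called 203 genes (0.979%), 60 higher (0.289%) and 143 lower (0.69%), and these held all 22. Without null 2, edgeR called 26 genes, 16 of them among the 22. Without null 6 it called 51, without WT 8 159 and without WT 13 64. Complete separation of the genotypes was common: the null lines both lay above both WT lines for 3820 genes (18.4%) and both below for 4335 (20.9%). With so few lines, a random order would also separate them often, so separation alone is no result about a gene.

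**Figure D1:**
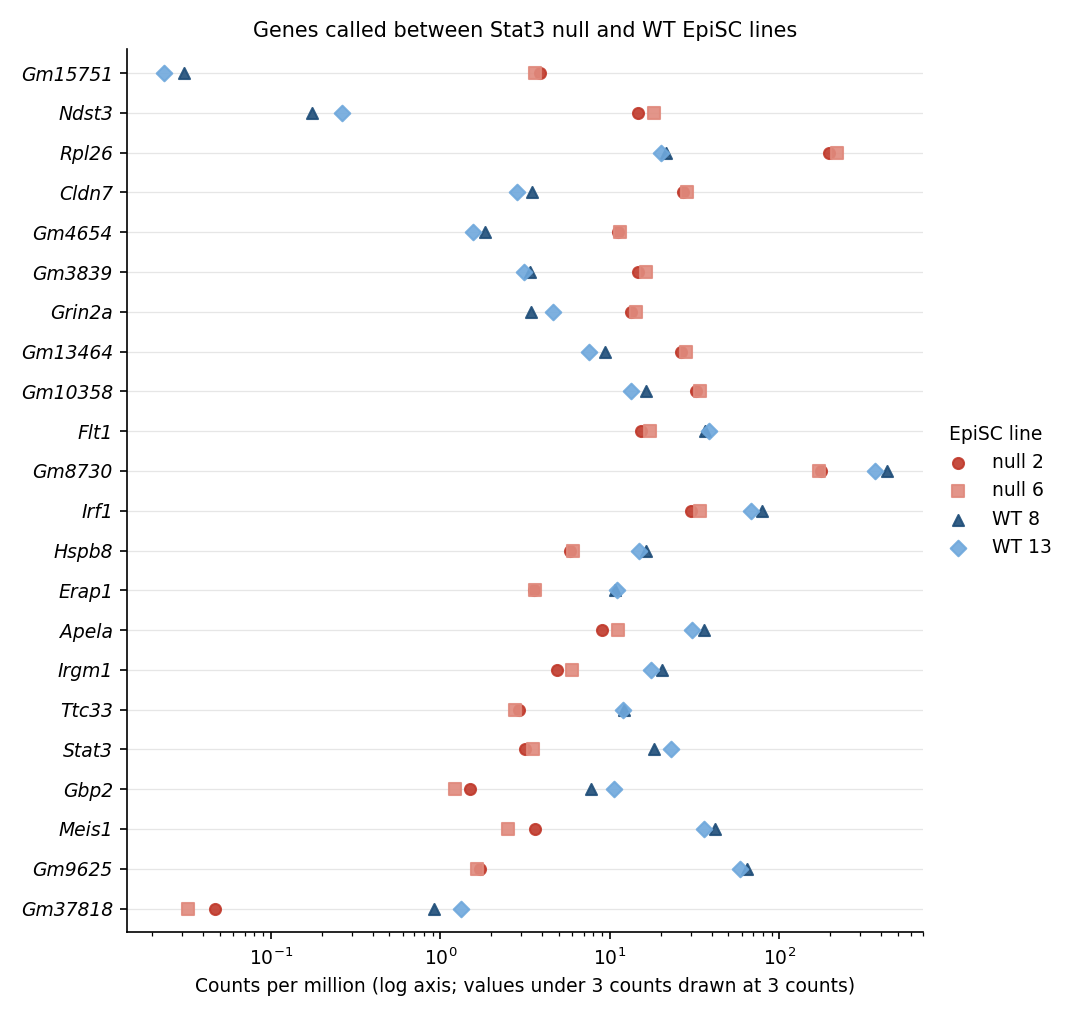
Levels of the 22 called genes in each EpiSC line, in CPM on a log axis, ordered by log2 fold change; each point is 1 line and values under 3 counts are drawn at 3 counts. The 2 null lines and the 2 WT lines fall into separate groups for every gene, with Gm15751 and Ndst3 the farthest apart among the 9 higher genes and Gm37818 and Gm9625 among the 13 lower ones. The genes were called from these same values, so the separation was favoured by the call and adds no support.

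Of the called genes, 7 had a near-identical copy in the annotated transcripts (at least 95% identity over 200 bases and 50% of a transcript). For Grin2a the copy was not used here. No copy was found for the other 15. Of these, Gm10358 (32.0, 34.0, 16.2 and 13.2 CPM), called higher, did not match the annotation and was not searched, so whether it has a copy is not known. Among those higher in null was Cldn7, a claudin of epithelial tight junctions (chr11:69964779-69967885, plus strand). Cldn7 was at 26.9, 28.6, 3.50 and 2.83 CPM, a log2 fold change of 3.13 ± 0.15 (adjusted p = 0.00162). The 2 null lines lay within a narrow range far above the WT lines, a pattern that the call itself favours. Ndst3, which modifies the sulfation of heparan sulfate chains, was at 14.6, 18.1, 0.174 and 0.264 CPM (log2 fold change 6.20 ± 0.27). WT lines thus held 17 and 34 counts of Ndst3, against 931 and 1671 in null lines. Grin2a, a subunit of NMDA-type glutamate receptors, was at 13.3, 14.2, 3.405 and 4.60 CPM (log2 fold change 1.78 ± 0.19, adjusted p = 0.0455). The call of Grin2a was lost without null 2 (adjusted p = 0.0889) and without null 6 (adjusted p = 0.0644). Gm15751, an RNA annotated as overlapping another gene in the sense direction, had 247 and 335 counts in null lines and none in WT lines, at least 118-fold higher against a floor of 3 counts per library.

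Rpl26, a protein of the large ribosomal subunit, was also called higher, at 196, 218, 21.5 and 20.1 CPM (log2 fold change 3.32 ± 0.09, adjusted p = 7.49e-05). Its copy Gm15772, a processed pseudogene on chromosome 5 with 99.5% identity over 438 bases, went the other way, at 198, 218, 426 and 406 CPM (log2 fold change -0.997 ± 0.08, adjusted p = 0.0164). Added together, the pair gave 395, 437, 447 and 426 CPM. The sum overlapped between the genotypes, while the part of it counted to Rpl26 was 49.8% and 49.97% in null lines and 4.82% and 4.72% in WT lines. The call of Rpl26 thus goes with how the counts were divided between 2 near-identical sequences, and is reported as uncertain.

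**Figure D2:**
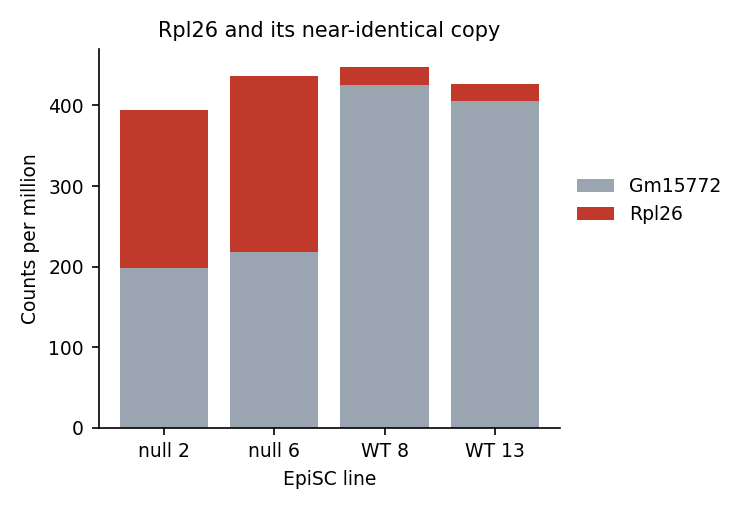
Levels of Rpl26 and of its near-identical copy Gm15772 in each EpiSC line, in CPM, stacked. The stacks reach 395 to 447 CPM in all 4 lines, while the Rpl26 part is about as large as the Gm15772 part in null 2 and null 6 and small in WT 8 and WT 13.

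Copies touched 2 other families. Gm9625 (1.71, 1.64, 64.8 and 58.3 CPM) and Gm8730 (176, 170, 429 and 367 CPM), both called lower, are pseudogenes near-identical to Rplp0, a protein of the ribosomal stalk. With their copies in the table they summed to 1032, 1021, 1145 and 995 CPM, with the genotypes overlapping. Gm4654, Gm3839 and Gm13464, all called higher, have 43 to 67 copies each, among them the glycolytic enzyme Gapdh. Each of the 3 was small beside its copies in the table, which summed to 3521 to 4498 CPM, so the sum says nothing about them and their calls are uncertain.

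The genes called lower included several that are known from the early embryo. Meis1, a homeodomain factor that works with HOX proteins, was at 3.60, 2.49, 41.9 and 35.8 CPM, a log2 fold change of -3.68 ± 0.21 (adjusted p = 0.00706). Both null lines lay far below both WT lines. Gm37818, called lower as well, lies within Meis1 on the same strand (chr11:18884623-18887791) and had 1 count in each null line against 90 and 171 in WT lines, so the 2 calls are not separate. Apela, which encodes the small peptide hormone ELABELA, a ligand of the apelin receptor, was at 9.02, 11.1, 36.1 and 30.6 CPM (log2 fold change -1.72 ± 0.15, adjusted p = 0.0171). Flt1, a receptor for VEGF, was at 15.4, 17.2, 36.2 and 38.7 CPM (log2 fold change -1.20 ± 0.11, adjusted p = 0.0189), and its call was lost without null 2 (adjusted p = 0.0681). These 3 genes had null lines that differed by little from each other and lay well below WT, a pattern that the call itself favours.

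Ttc33, a protein with tetratricopeptide repeats, was at 2.90, 2.75, 12.1 and 12.03 CPM (log2 fold change -2.10 ± 0.17, adjusted p = 0.0132). Hspb8, a small heat shock protein, was at 5.80, 6.08, 16.2 and 14.8 CPM (log2 fold change -1.39 ± 0.14, adjusted p = 0.0323). The call of Hspb8 was lost without null 2 (adjusted p = 0.132) and without null 6 (adjusted p = 0.0623).

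Genes of the interferon response stood among the lower calls. Interferons induce the transcription factor Irf1 together with guanylate binding and immunity-related GTPases, and they raise the loading of peptides onto MHC class I. Irf1 was at 30.1, 33.9, 79.3 and 68.3 CPM, a log2 fold change of -1.20 ± 0.11 (adjusted p = 0.0197). Gbp2, a guanylate binding protein, was at 1.504, 1.21, 7.78 and 10.6 CPM (log2 fold change -2.76 ± 0.25, adjusted p = 0.0202). Irgm1, an immunity-related GTPase, was at 4.87, 5.94, 20.3 and 17.6 CPM (log2 fold change -1.80 ± 0.16, adjusted p = 0.0202). In each of them both null lines lay below both WT lines, as in every gene called lower. Erap1, which trims peptides for MHC class I, was at 3.56, 3.60, 10.7 and 11.1 CPM (log2 fold change -1.61 ± 0.16, adjusted p = 0.0323), a call that was lost without null 2 (adjusted p = 0.132) and without null 6 (adjusted p = 0.0668).

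Letters of 2 motifs were searched on both strands in the 250 bases before the start of RefSeq genes (GRCm38.p6): the GAS element TTCNNNGAA and a core of the interferon-stimulated response element (GAAA, any 2 bases, GAAA). Matches of the 2 motifs did not overlap in the called genes. Of 13 called genes with a promoter in the table, 10 were lower in null, and of these 1 held the first and 2 the second. Of all 32851 promoters, 7.02% held the first and 2.98% the second. The matches of the lower genes are shown with the motif in capitals, for Irf1 on the plus strand (chr11:53769764-53770013, the whole 250 bases), for Irgm1 on the minus strand (chr11:48871428-48871457) and for Gbp2 on the plus strand (chr3:142620594-142620623).

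Irf1: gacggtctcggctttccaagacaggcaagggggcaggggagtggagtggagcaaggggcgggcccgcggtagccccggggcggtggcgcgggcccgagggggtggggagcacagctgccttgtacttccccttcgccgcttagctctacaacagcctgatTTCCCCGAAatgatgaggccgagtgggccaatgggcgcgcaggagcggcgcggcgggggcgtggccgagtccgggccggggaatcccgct
Irgm1: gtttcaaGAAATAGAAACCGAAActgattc
Gbp2: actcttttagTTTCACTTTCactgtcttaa

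The Irf1 match began 90 bases before the start. In Irgm1 the letters matched at 2 overlapping positions, the first beginning 30 bases before the start, and the Gbp2 match began 59 bases before it. Cldn7, higher in null, also held 1 match of each motif over its 2 promoters. A match describes the letters only.

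Over the list of interferon response and antigen presentation genes, 25 of 26 members were tested. Irf1 and Gbp2 were called lower and no member was called higher, where 0.0627% and 0.0434% of all genes were. DESeq2 called 2 members lower and none higher, against 0.69% and 0.289% of all genes. At an unadjusted p under 0.05, 14 were lower and none was higher, where 5.48% and 3.61% of all genes were. Both null lines lay below both WT lines for 17 of 25 members and above for none, where 20.9% and 18.4% of all genes were so separated. The median log2 fold change was -0.58 over the members and -0.01 over all genes, and it stayed between -0.65 and -0.50 when any 1 line was left out. The class I genes B2m (30.1, 33.3, 40.8 and 53.9 CPM) and H2-D1 (25.1, 29.1, 39.9 and 36.8 CPM) were separated by genotype but did not pass (adjusted p = 0.270 and 0.203). The RNA sensor Ifih1 had no count in either null line and 21 and 40 counts in WT lines, and Ifit1, an interferon-induced antiviral protein, none against 17 and 19. Irf7 (2.91, 2.11, 2.30 and 2.21 CPM) and Ifitm2 (145, 146, 147 and 127 CPM) did not separate, so the list did not move as 1 block. Outside the list, Irgm1 and Erap1 were called lower, while the class I gene H2-Q2 went the other way. H2-Q2 was at 2.24, 2.92, 0.348 and 0.768 CPM, called higher by DESeq2 (adjusted p = 0.000863) and not by edgeR (adjusted p = 0.182).

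**Figure D3:**
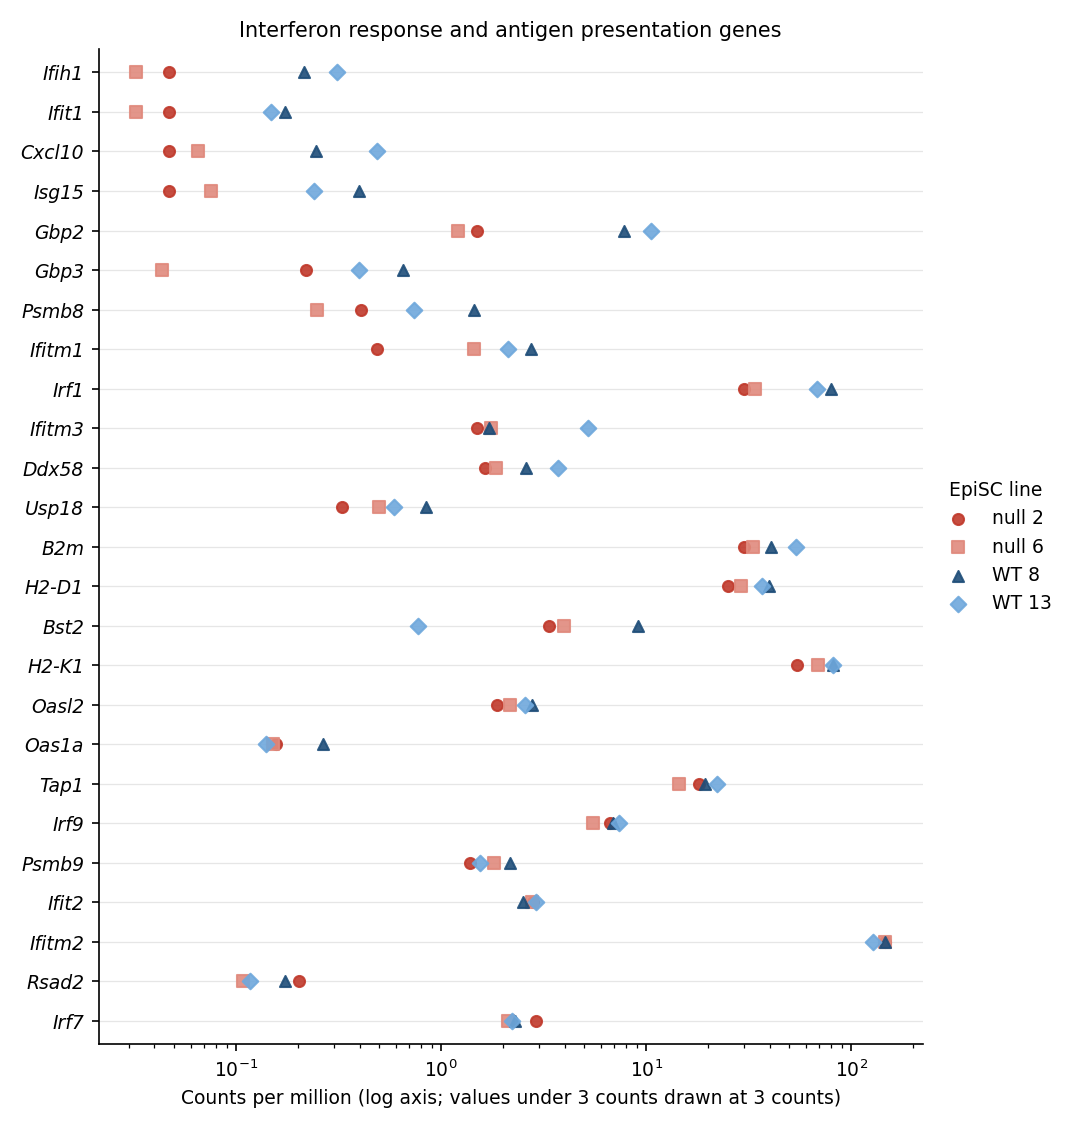
Levels of the 25 tested interferon response and antigen presentation genes in each EpiSC line, in CPM on a log axis, ordered by log2 fold change; each point is 1 line and values under 3 counts are drawn at 3 counts. The null lines lie left of both WT lines for 17 genes, among them Gbp2 and Irf1, while Irf7 and Ifitm2 at the bottom overlap.

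The target genes of STAT3 itself showed smaller differences. Of 24 listed targets 22 were tested and none was called by edgeR or by DESeq2. At an unadjusted p under 0.05, 6 were lower and none was higher, where 5.48% and 3.61% of all genes were. Both null lines lay below both WT lines for 11 of the 22 and above for 2, against 20.9% and 18.4% of all genes. Socs3, the feedback inhibitor of STAT3, was at 4.45, 6.36, 8.32 and 6.88 CPM (log2 fold change -0.49 ± 0.23, adjusted p = 0.624). The null lines were below the WT lines, but null 6 came close to WT 13. Klf5, a factor of naive pluripotency, was at 16.6, 17.96, 28.1 and 27.2 CPM (log2 fold change -0.68 ± 0.10, adjusted p = 0.102). Junb, an AP-1 subunit, was at 32.9, 31.2, 46.3 and 54.0 CPM (log2 fold change -0.65 ± 0.10, adjusted p = 0.112). Myc overlapped between the genotypes at 119, 124, 122 and 116 CPM. Mcl1, which protects cells from apoptosis, was separated by a small difference, at 170, 182, 184 and 206 CPM (adjusted p = 0.718). The list's median was -0.13, and -0.27 without WT 8.

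The receptors, kinases and inhibitors of the pathway differed little. Of 28 tested members none was called by either tool, and at an unadjusted p under 0.05, 1 was higher and 1 lower, a share close to the background. Il6st, which encodes gp130, was at 46.7, 46.0, 51.5 and 52.4 CPM (log2 fold change -0.16 ± 0.08). Lifr, the LIF receptor, was at 13.3, 10.6, 18.1 and 15.2 CPM (log2 fold change -0.48 ± 0.16, adjusted p = 0.428). Stat5b, another member of the STAT family, was at 22.6, 25.3, 30.5 and 24.3 CPM. The median over the list was -0.07, and -0.01 without null 2.

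No pluripotency gene was called. Of 12 core genes tested none was called by either tool, with 1 higher and 1 lower at an unadjusted p under 0.05 and a median of 0.06. Nanog was at 165, 187, 192 and 141 CPM and Sox2 at 128, 136, 167 and 144 CPM. Dppa2, with the largest log2 fold change of the list (1.57 ± 1.42, adjusted p = 0.847), was near the floor at 0.110, 0.293, 0.143 and 0 CPM. Lin28a, an RNA-binding protein that blocks let-7 maturation, was at 514, 541, 558 and 468 CPM. Of the 16 genes of the primed state none was called by either tool, although 5 were higher and 2 lower at an unadjusted p under 0.05. Dnmt3b, a de novo DNA methyltransferase, was at 744, 885, 487 and 462 CPM (log2 fold change 0.78 ± 0.10, adjusted p = 0.0739). Its 2 null lines lay above both WT lines by a size under the call's limit. Zic2 was at 509, 538, 422 and 419 CPM and Epha2, an ephrin receptor, at 490, 527, 713 and 575 CPM. Of the 15 naive genes 9 passed the filter on low counts, and none of these was called by either tool, with 3 lower and none higher at an unadjusted p under 0.05. Both null lines lay below both WT lines for 5 of the 9 and above for none, against 20.9% and 18.4% of all genes. At an unadjusted p under 0.05, 5.48% of all genes were lower and 3.61% higher. Tfcp2l1, a factor that STAT3 induces in naive cells, was at 6.03, 7.38, 9.23 and 11.2 CPM. The naive median was -0.31, and -0.50 without null 6.

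**Figure D4:**
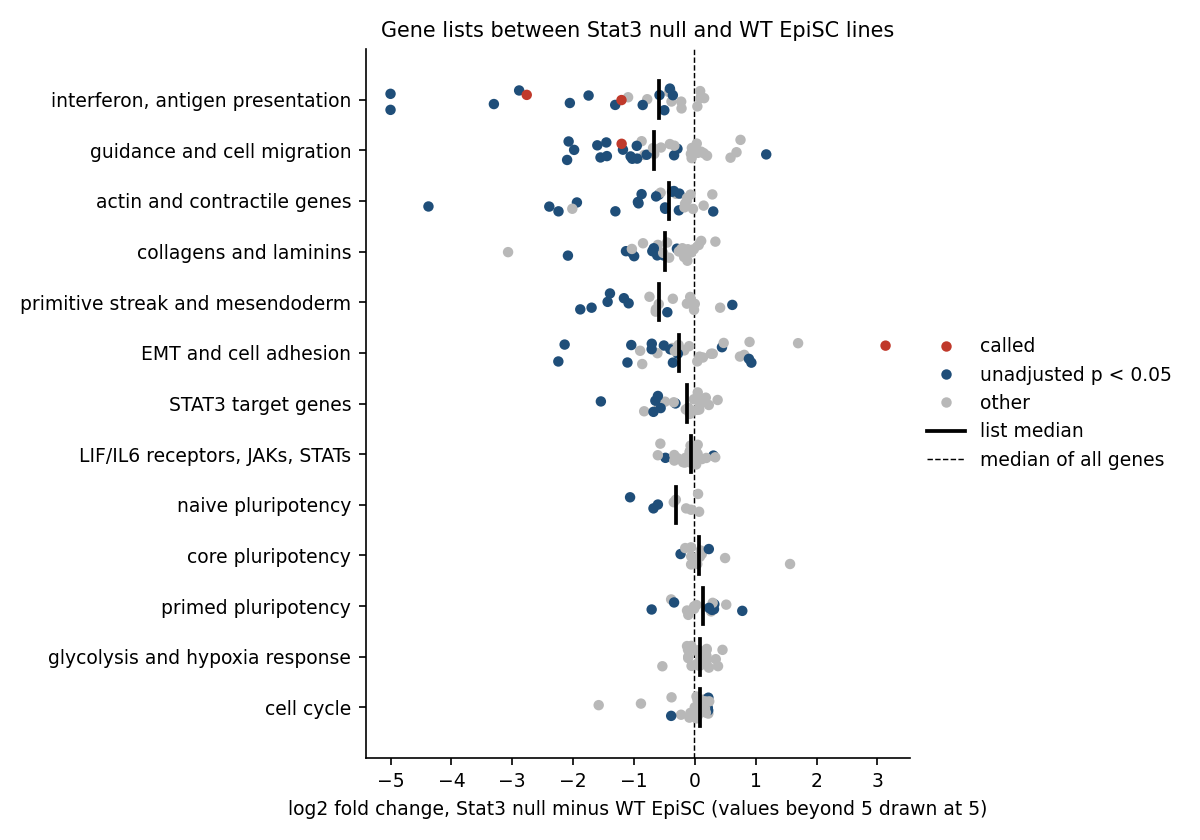
Log2 fold change (null minus WT) of the tested members of 13 gene lists; each point is 1 gene, red points are called genes, blue points have an unadjusted p under 0.05, black bars are list medians and the dashed line is the median of all genes, and values beyond 5 are drawn at 5. The interferon, guidance, actin, collagen and primitive streak lists have medians of -0.43 to -0.67, while the lists of the STAT3 pathway, pluripotency, glycolysis and cell cycle have medians of -0.31 to 0.13.

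Genes of cell guidance and migration lay mostly lower in null lines. Of 36 listed genes 35 were tested. Flt1 was called lower (0.0627% of all genes were) and DESeq2 called 7 lower and none higher (0.69% and 0.289% of all genes). At an unadjusted p under 0.05, 16 were lower and 1 higher, against 5.48% and 3.61% of all genes. Their median was -0.67, between -0.81 and -0.49 when any 1 line was left out. Sema3c, a secreted semaphorin, was at 15.9, 12.2, 26.1 and 31.1 CPM (log2 fold change -1.03 ± 0.16, adjusted p = 0.113). Efnb1, an ephrin ligand, was at 1.57, 2.09, 6.23 and 4.53 CPM (log2 fold change -1.55 ± 0.28, adjusted p = 0.140). Cxcr4, the receptor of the chemokine CXCL12, was at 2.05, 2.44, 6.51 and 3.69 CPM (adjusted p = 0.287). Null lines were below WT lines in these 3 genes. Pdgfa, a growth factor, went by line and not by genotype, at 5.11, 61.8, 5.89 and 33.9 CPM.

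Contractile and matrix genes lay mostly lower too. Of 28 actin and smooth muscle genes tested none was called by edgeR and 5 were called lower by DESeq2 (0.69% of all genes). At an unadjusted p under 0.05, 16 were lower and 1 higher (5.48% and 3.61% of all genes), and the median was -0.43. Acta2, smooth muscle actin, was at 0.423, 0.553, 4.17 and 16.3 CPM (log2 fold change -4.38 ± 0.85, adjusted p = 0.272). The WT lines were far apart from each other, and both lay above the null lines. Tpm1, a tropomyosin, was at 179, 174, 291 and 379 CPM (log2 fold change -0.92 ± 0.13, adjusted p = 0.102), and Flna, a filamin, at 872, 893, 928 and 1002 CPM. Of the collagens and laminins, 28 were tested, none was called by edgeR and 1 was called lower by DESeq2, with 10 lower and none higher at an unadjusted p under 0.05 and a median of -0.49. Sparc, a collagen-binding matrix protein, was at 117, 122, 184 and 203 CPM (log2 fold change -0.70 ± 0.08, adjusted p = 0.0526), while Lama5 was at 702, 696, 660 and 677 CPM. WT 13 had the highest level for 17 of 28 contractile genes and 20 of 28 matrix genes, against 29.4% of all genes. The fibroblast markers were also highest in WT 13, for 5 of 8 tested, and their part in these values was not tested.

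Adhesion genes had differences of both signs. Of 33 tested genes of the epithelial to mesenchymal transition and of adhesion, Cldn7 was called higher (0.0434% of all genes were). DESeq2 called 1 higher and 3 lower (0.289% and 0.69% of all genes), and 4 were higher and 10 lower at an unadjusted p under 0.05. Vim, the intermediate filament of mesenchymal cells, was at 119, 152, 275 and 283 CPM (log2 fold change -1.04 ± 0.12, adjusted p = 0.0684), and Cdh2, N-cadherin, at 39.7, 37.5, 60.3 and 66.0 CPM (log2 fold change -0.71 ± 0.09, adjusted p = 0.0645). Among the epithelial members Epcam was at 223, 223, 160 and 167 CPM (log2 fold change 0.45 ± 0.07, adjusted p = 0.112) and Esrp1, a splicing factor of epithelia, at 97.2, 115, 42.9 and 68.7 CPM (adjusted p = 0.444). Cdh1, E-cadherin, was at 386, 471, 181 and 331 CPM (adjusted p = 0.693). None of these 5 genes passed, though the null lines lay on 1 side of the WT lines for each. Over the 33 tested, both null lines lay above both WT lines for 9 members and below for 12, against 18.4% and 20.9% of all genes. At an unadjusted p under 0.05, 3.61% of all genes were higher and 5.48% lower. The list's median was -0.27, and -0.06 without null 2.

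Primitive streak genes lay mostly lower in null lines, with the highest levels in WT 8. Of 24 listed genes 19 were tested and none was called by edgeR. At an unadjusted p under 0.05, 7 were lower and 1 higher, against 5.48% and 3.61% of all genes. Both null lines lay below both WT lines for 8 of the 19 and above for 1, against 20.9% and 18.4% of all genes. DESeq2 called T, Lhx1 and Cer1 lower and none higher, against 0.69% and 0.289% of all genes. T, the brachyury factor of the streak, was at 6.63, 10.2, 22.7 and 13.1 CPM (log2 fold change -1.09 ± 0.34, adjusted p = 0.438), and Eomes at 88.1, 119, 156 and 70.5 CPM. WT 8 had the highest level for 15 of the 19 genes, against 24.9% of all genes, and WT 13 for none. The median over the list was -0.59, and -0.01 without WT 8.

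Glycolysis and cell cycle genes had medians near 0, and most mitochondrially encoded genes lay slightly lower in null lines. None of 27 glycolysis and hypoxia genes had an unadjusted p under 0.05 or was called by DESeq2, and their median was 0.08. Of 29 cell cycle genes 3 were higher and 1 lower at that limit, where 3.61% and 5.48% of all genes were. None was called by either tool, and their median was 0.08. Both null lines lay above both WT lines for 13 of the 29 and below for 3, against 18.4% and 20.9% of all genes. Cdkn1a, an inhibitor of cyclin-dependent kinases, was at 184, 142, 194 and 233 CPM (log2 fold change -0.39 ± 0.15). All 13 mitochondrially encoded genes had an unadjusted p over 0.05, with a median of -0.17, and 12 of the 13 were highest in WT 13. By log2 fold change 12 of the 13 were lower in null, and both null lines lay below both WT lines for 5 and above for none.

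By chromosome, 7 of the 22 called genes lay on chromosome 11, which carries Stat3: 0.443% of its 1579 tested genes, against 0.106% of all. They are Stat3, Meis1, Gm37818, Irf1, Irgm1, Rpl26 and Cldn7. Without Stat3, Gm37818 and Rpl26 there were 4 of 1576 (0.254%), against 19 of 20733 over all genes (0.0916%). No other chromosome had more than 3. Within 10 Mb of Stat3, leaving out Stat3 itself, none of 357 tested genes was called by edgeR. DESeq2 called 4 of the 357, where it called 0.979% of all genes. An unadjusted p under 0.05 was found for 55 (15.4%, against 9.09% of all genes). Sequence on chromosome 11 that came with the null allele is shared by both null lines, and its effect cannot be told apart from the loss of STAT3 in this design.

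The embryos gave a reading of the same genes in separate samples, epiblasts whose libraries were made with another kit: at E6.5 there were 8 null embryos beside 9 WT ones, and at E7.5 3 beside 9. With edgeR no gene of 17095 was called at E6.5 (0%), where 1414 had an unadjusted p under 0.05 (8.27%) and DESeq2 called 18. At E7.5, 231 of 19680 genes were called (1.17%) and 3874 had an unadjusted p under 0.05 (19.7%). The count at E7.5 was 0 without null replicate 2 and 1105 without WT replicate 3, so calls at that stage rest on few epiblasts. The paper reports that null epiblasts are developmentally delayed. A difference between genotypes can thus also be a difference of stage, and the parts were not tested. For Stat3 the log2 fold change at E6.5 was -1.60 ± 0.39, with an adjusted p of 0.334, and at E7.5 it was -3.31 ± 0.44, with an adjusted p of 0.00808. Of the genes called in EpiSCs, 20 could be tested at E6.5 and 8 of them had the same sign, where 46.1% of all genes did. At E7.5, 11 of 21 had the same sign, 52.4%, against 57.4% of all genes. Stat3 was the only one of them also called in an epiblast comparison. The 143 genes that DESeq2 called lower in null EpiSCs had the same sign at E7.5 in 88 of 130 tested, 67.7%, against 57.9% of all genes lower in EpiSCs. Of these 130, 7 were called there with the same sign and 1 with the opposite sign. Among all 9296 genes lower in EpiSCs and tested at E7.5, these counts were 135 and 6. The same sign with an unadjusted p under 0.05 was found for 47 of the 130 and 1300 of the 9296. At E6.5 the same genes had the same sign in 36 of 101 tested, 35.6%, against 47.3% of all lower genes. The 60 that DESeq2 called higher had it in 15 of 54 at E6.5, 27.8% against 45.0%, and in 32 of 59 at E7.5, 54.2% against 56.8%.

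**Figure D5:**
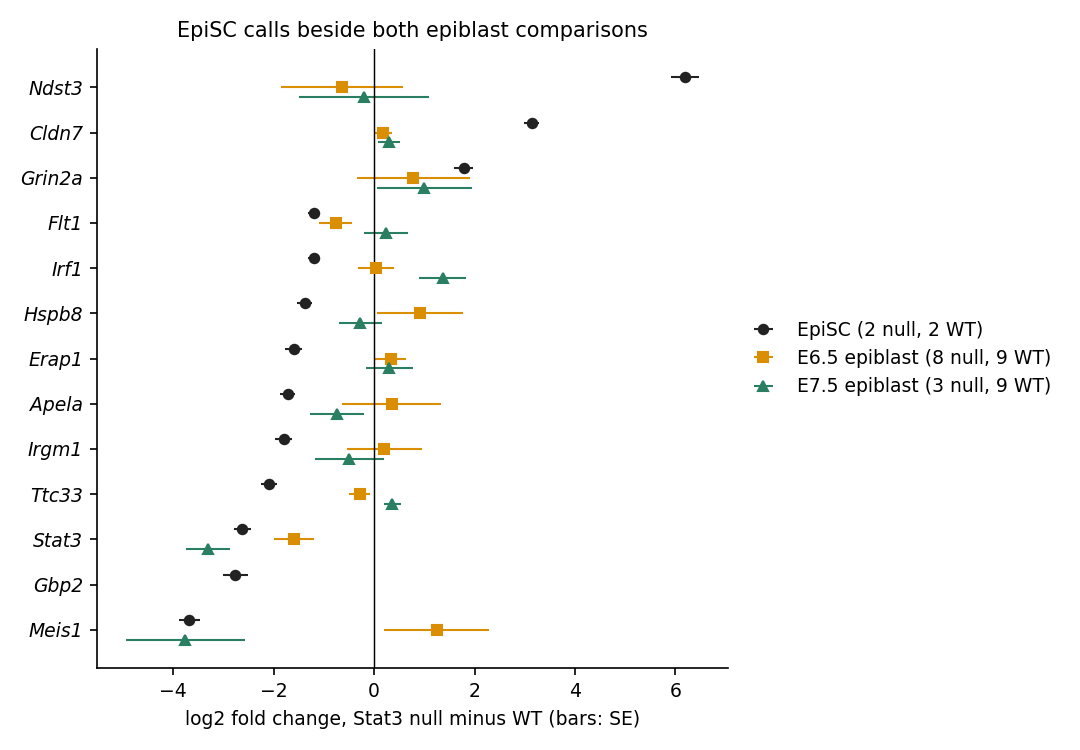
Log2 fold change (null minus WT, bars show the SE) of 13 protein-coding genes called in EpiSCs, in EpiSCs and in epiblasts at E6.5 and E7.5; Rpl26 and Gm-named genes are left out and Gbp2 was not tested in epiblasts. Stat3 lies below 0 in all 3 comparisons and Meis1 in EpiSCs and at E7.5, while most other genes have epiblast values with SE bars near or across 0.

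Meis1 differed between the stages. At E7.5 it ranged from 0.307 to 5.15 CPM in null epiblasts, with a median of 1.29, and from 0.557 to 63.4 CPM in WT, with a median of 27.2. The log2 fold change there was -3.76 ± 1.18 (adjusted p = 0.110), close in size to that in EpiSCs, and the ranges of the genotypes overlapped. At E6.5 the medians were 1.34 CPM in null and 0.646 CPM in WT. Null epiblasts at E7.5 were thus near the level of both genotypes at E6.5. With the developmental delay that the paper reports, stage and genotype differ together at E7.5, and their parts were not tested. Cldn7 was expressed in both genotypes, with medians of 37.5 CPM in null and 29.8 CPM in WT at E6.5 and of 29.4 and 22.7 CPM at E7.5, so WT EpiSCs lay below every epiblast group and null EpiSCs within their range, in libraries of another kit. Irf1 at E7.5 had medians of 12.3 CPM in null and 4.42 CPM in WT, opposite in direction to EpiSCs (log2 fold change 1.36 ± 0.47, adjusted p = 0.121).

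The difference between the genotype effects was tested in 1 model of all 6 groups. It passed for 7 of 23899 genes between EpiSCs and E6.5 (0.0293%) and for 6 between EpiSCs and E7.5 (0.0251%). Of the genes called in EpiSCs these were Cldn7 and Gm9625 against both stages and Ttc33 against E7.5. Cldn7 and Gm9625 passed in 8 of 8 alternatives against each stage, and Ttc33 in 4 of 8. Gm9625 is near-identical to Rplp0, and summed with its copies the genotypes overlapped in EpiSCs, so its difference is uncertain. For Cldn7 the effect in EpiSCs exceeded that at E6.5 by 2.93 ± 0.39 (adjusted p = 7.80e-05) and that at E7.5 by 2.84 ± 0.42 (adjusted p = 0.000908) on the log2 scale. For Meis1, Irf1, Irgm1 and the others called in EpiSCs the difference did not pass. The biological coefficient of variation of the model of all 6 groups was 0.861, an estimate that EpiSC lines and epiblasts shared. In the separate fits it was 0.221 over EpiSC lines, 0.716 at E6.5 and 0.603 at E7.5, so the spread between epiblasts was large.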

How the data were processed

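RNA-seq counts per gene of 4 EpiSC lines were analysed, with 29 epiblasts for comparison. The deposited counts were made by the authors, who trimmed reads with Trim Galore, aligned them to GRCm38 (mm10) with HISAT2 and assembled them with StringTie. Whether the EpiSC libraries and their counting kept the strand is not stated, so reads of overlapping genes may not be told apart. This limits the values of overlapping RNAs such as Gm15751 and Kcnq1ot1. The table lists 47643 genes, of which 47224 matched the annotation used here. Groups came from the labels. The members, gene lists and tests were chosen with earlier results of these data known.

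Genes were filtered by edgeR's filterByExpr (minimum count 10, minimum total 15), scaled by the trimmed mean of M values and tested by robust quasi-likelihood in edgeR 4.0.16 (R 4.3.3), with Benjamini-Hochberg adjustment over all genes tested and the SE taken as the log2 fold change over the root of F. A call required a log2 fold change over 1 in size and an adjusted p under 0.05, as in the study. Each epiblast stage was fitted alone, and differences between effects in 1 model. DESeq2 1.42.0 and voom in limma 3.58.1 were alternatives. Genes were named if called in EpiSCs, called in a difference test, or members of the lists. Near-identical copies were found with BLAST+ 2.17.0. The scripts were tested on simulated data.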

Additional observations from a re-analysis of the deposited data

Results flagged for a closer look

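In epiblasts, 14 of 39 groups of the genes called in EpiSCs held a library far from its group. The rule set the gap to the next library against the range of the group. Its limits assume normal values, and several of the libraries recur between genes, so no chance rate is given. At E6.5, Rpl26 reached 482 CPM in 1 null epiblast, with the next at 45.4 CPM, and 534 CPM in 1 WT epiblast, with the next at 49.1 CPM. The interferon-related genes stood out together, in libraries other than these. In null replicate 2 at E6.5, Irf1 was at 92.7 CPM, Irgm1 at 37.1 CPM and Erap1 at 42.1 CPM, with the next null epiblasts at 30.6, 7.18 and 18.3 CPM. In WT replicate 3 at E6.5, Irf1 was at 75.2 CPM, Irgm1 at 40.8 CPM and Erap1 at 28.7 CPM, with the next WT epiblasts at 39.99, 5.45 and 17.0 CPM. Irf1 also reached 14.8 CPM in 1 WT epiblast at E7.5. Further single epiblasts stood apart at E6.5 for Meis1 (10.2 CPM, null), Apela (5.57 CPM, null replicate 2), Ttc33 (5.79 CPM, the lowest null value) and Grin2a (2.998 CPM, WT), and at E7.5 for Ndst3 (5.41 CPM, WT).

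The genotype effect differed between EpiSCs and epiblasts for several genes by the test of the difference itself. Cldn7, Gm9625 and Gm4366 against both stages and Ap1m2 against E6.5 passed in 8 of 8 alternatives. Gm9625 is near-identical to Rplp0 and Gm2574 to Gm3839, a copy of Gapdh, so the differences of these pseudogenes are uncertain. Gm4366, also a pseudogene, was not searched for copies. The others lost the call in some: Gm2574 passed in 4 of 8, Grb7 in 5 and Kcnq1ot1 in 6 against E6.5, and Ttc33 in 4, Trh in 5 and Ap1m2 in 6 against E7.5. Against E6.5 the log2 difference of effects, EpiSC minus epiblast, was 2.93 for Cldn7, 2.06 for Grb7, -4.83 for Gm9625, 1.14 for Gm2574, -1.81 for Gm4366, -2.26 for Kcnq1ot1 and 5.45 for Ap1m2. Against E7.5 it was 2.84 for Cldn7, -5.22 for Gm9625, -2.45 for Ttc33, -5.51 for Trh, -2.15 for Gm4366 and 4.47 for Ap1m2. Ap1m2, an adaptor subunit of polarised epithelia, was at 1.05, 0.369, 0 and 0.0310 CPM in EpiSCs, against means of 25.1 to 43.3 CPM over the epiblast groups. The imprinted antisense RNA Kcnq1ot1 was at 1.85, 4.96, 13 and 21.7 CPM, with both null lines below both WT lines.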

How the results depend on the processing

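The count of 22 genes called in EpiSCs was 203 with DESeq2, 75 with no filter on low counts and 26 to 159 when any 1 line was left out (26 without null 2, 51 without null 6, 159 without WT 8, 64 without WT 13). A line left alone in its group was assumed to vary like the other pair. Other settings gave 16 to 25 calls. Stat3 was called under every alternative, and no direction of a called value reversed. At E6.5 the count of 0 was 18 with DESeq2 and 0 to 2 without 1 epiblast. At E7.5 the count of 231 was 985 with DESeq2 and 0 to 1105 without 1 epiblast (0 without null replicate 2, 1105 without WT replicate 3). For the difference of effects, the count against E6.5 was 39 with DESeq2, 167 with voom and 4 to 8 without 1 EpiSC line, and against E7.5 it was 38, 528 and 3 to 7. The cause was not tested. No paired analysis was possible for the EpiSC lines because the genotypes share no line number. In epiblasts the numbers do not pair the samples (correlation of deviations 0.017 to 0.183 at E6.5 and -0.192 to 0.010 at E7.5), and with a replicate block 0 genes were called at E6.5 and 0 at E7.5. With 2 lines a group, a moderate difference in a variable gene was not detectable.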

Other observations

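Other signalling lists gave few calls in EpiSCs, none of them by edgeR. Of all genes, 5.48% were lower and 3.61% higher at an unadjusted p under 0.05. At an unadjusted p under 0.05, FGF and ERK genes had 7 of 25 lower and none higher, Nodal and Activin genes 6 of 26 lower and none higher, BMP genes 4 of 21 lower and none higher, Notch genes 4 of 19 lower and none higher, and Wnt genes 2 of 29 lower and 3 higher. DESeq2 called 2 Nodal genes, 1 Wnt gene and 1 Notch gene lower and no BMP or FGF gene, where it called 0.69% of all genes lower. Of 36 imprinted genes, 8 were lower and 1 higher at that limit, with a median of -0.13. Of 20 germline genes 11 were tested, with a median of -1.03 and 2 lower at that limit.

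In epiblasts the part of the Rpl26 and Gm15772 sum counted to Rpl26 fell into separate ranges: under 10% in 7 of 8 null and 8 of 9 WT epiblasts at E6.5, and 40% to 60% in the other 1 of each. At E7.5 it was under 10% in 2 of 3 null and 5 of 9 WT epiblasts, and over 90% in 2 WT epiblasts.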
